A study of Homo sapiens with 204 samples.

Results

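RPS3 (uS3) is a protein of the small, 40S ribosomal subunit, and the comparison described here is its knockdown by small interfering RNA (siRNA) against non-targeting siRNA. The members are the libraries that the labels and column names give to RPS3 and to the numbered controls: 2 RPS3 libraries and 6 control libraries for mRNA, and the same numbers for ribosome footprints. The 4 RPS3 libraries and 12 control libraries stand among 204 libraries in all. All came from A549, an established line from a human lung adenocarcinoma. In the series, ribosomal proteins were knocked down one by one, and each lysate went into RNA-seq, which measures mRNA, and Ribo-seq, which sequences the mRNA stretches that ribosomes protect from nuclease. Cells were transfected with 40 nM siRNA for 24 h and given cycloheximide, which halts elongation, at 100 µg/ml for 5 min. Footprints of 28 to 30 nucleotides were kept. No allele, drug or genotype other than the siRNA separates the groups.

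RPS3 lies at the mRNA entry channel of the 40S subunit, where it takes part in initiation, in helicase activity of the ribosome and in surveillance of stalled ribosomes. The E3 ligase RNF10 ubiquitinates RPS3, and ZNF598 marks other small-subunit proteins on collided ribosomes. LTV1 escorts RPS3 into the pre-40S particle. Outside the ribosome, RPS3 is known as a partner of the NF-kB subunit RELA and as a factor with activity in base excision repair. When ribosome assembly is disturbed, free 5S particles containing RPL5 and RPL11 can bind MDM2, the ligase that degrades p53, and transcription of p53 target genes rises.

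The 8 mRNA libraries held 30.71 M to 45.19 M counts over exons, with 42.14 M and 45.19 M in the RPS3 libraries. The footprint libraries held 14.94 M to 41.88 M counts over coding sequences, with 14.94 M and 16.13 M in the RPS3 libraries. All values below are CPM, counts divided by the library's total and scaled alike, after TMM normalization. CPM are relative within an assay, and a rise or fall shared by all genes would not show in them. The median SD over genes was 0.41 on the log2 scale between the 6 control mRNA libraries and 0.08 between the 2 RPS3 mRNA libraries. For footprints these SDs were 0.31 and 0.19. The controls are 3 pairs by title, and within a pair the SD was 0.07 for title 11, 0.33 for title 20 and 0.06 for titles 21 and 22 in mRNA, and 0.10, 0.09 and 0.09 in footprints. All pairs were closer than the controls as a whole, title 20 in mRNA by the least. The fit treats the 6 as separate libraries and pools their spread with that within pairs of other knockdown targets. The SEs and adjusted p below therefore do not fully carry the spread between control pairs. The mRNA library of control 20_2 stood apart, with correlations of 0.864 to 0.963 with the other 7 libraries, which correlated among themselves at 0.942 to 0.996 (Pearson, across genes). The labels name biological replicates for 16 targets and 3 controls without saying what was repeated, so the spread may be in part technical. The siRNA sequences are not used here, and what an RPS3 siRNA does beside lowering RPS3 cannot be told apart from the loss of RPS3. Of 14 lung epithelial and A549 markers, 9 passed the filter on mRNA. The surfactant genes, NAPSA and NKX2-1, which define differentiated alveolar cells, did not pass it. Of 8 fibroblast and 8 blood markers 2 each passed, and no endothelial marker did.

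RPS3 mRNA and footprints were nearly gone from the knockdown cells. RPS3 mRNA stood at 41.7 and 38.5 CPM in the RPS3 libraries, against 1406 CPM in the lowest control, a median of 2034 and 3358 in the highest. RPS3 footprints stood at 26 and 23.2 CPM, against 920, 969 and 1097 CPM in the lowest, median and highest control. Both RPS3 libraries thus lay far below every control in both assays. The fitted log2 fold change was -5.74 ± 0.28 (SE) for mRNA (adjusted p = 4.976e-14) and -5.33 ± 0.11 for footprints (adjusted p = 6.659e-24; edgeR quasi-likelihood test with Benjamini-Hochberg adjustment, as for every adjusted p below). The log2 ratio of RPS3 footprints to RPS3 mRNA differed from control by 0.35 ± 0.23, which did not pass the threshold of 0.05 (adjusted p = 0.3363).

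**Figure D1:**
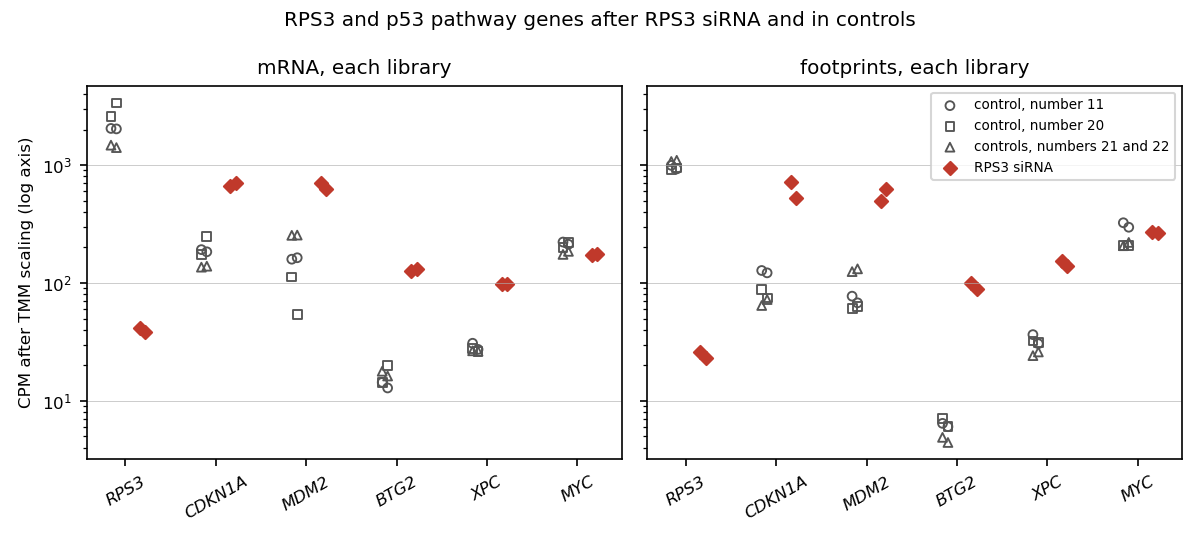
CPM on a log axis for RPS3, CDKN1A, MDM2, BTG2, XPC and MYC, with mRNA and footprints in separate panels, 1 point per library for 2 RPS3 libraries and 6 controls. RPS3 lies below every control in both assays, BTG2, XPC, CDKN1A and MDM2 above every control, and MYC mRNA near the range of the controls.

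At the mRNA level, RPS3 knockdown raised p53 target genes and lowered genes of DNA replication, mitosis and histone supply, with a smaller fall of ribosomal protein and elongation factor mRNAs. Of 15183 genes tested, 24.3% passed an adjusted p of 0.05. 1625 of them were higher (10.7%) and 2070 lower (13.6%). Those called with both RPS3 libraries outside the range of all 6 controls made up 9.55% (higher) and 11.3% (lower). The median change of all genes was -0.06 on the log2 scale. The test took its spread from 38 libraries, the 16 targets with 2 libraries each and the controls. Fitted on the 8 libraries alone, it called 245 genes higher and 236 lower, and on those without control 20_2 it called 774 and 743. Without RPS3 library 1 the counts were 835 and 923, and without library 2 they were 854 and 1008, the lone library being assumed to vary like the other groups.

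Of 36 p53 target genes, 30 rose and none fell, with a median log2 fold change of 1.11. BTG2, an antiproliferative p53 target, had 126 and 133 CPM in the RPS3 libraries, against 12.9, 15.3 and 19.9 in the lowest, median and highest control. Its log2 fold change was 3.02 ± 0.11 (adjusted p = 4.585e-16). XPC, a DNA damage sensor of nucleotide excision repair, had 98.4 and 98.3 CPM against 26.4, 27 and 30.9 (1.83 ± 0.07, adjusted p = 5.878e-16). Both genes lay above all controls by more than the spread within either group. CDKN1A, the cell cycle inhibitor p21, had 668 and 706 CPM against 136, 179 and 247 (1.94 ± 0.14, adjusted p = 1.63e-10). MDM2 had 699 and 622 CPM against 53.7, 161 and 255 (1.99 ± 0.29, adjusted p = 1.242e-05). MDM2 varied more between controls than the other 3 genes, and both RPS3 libraries were above all of them. TP53INP1, a p53-induced stress protein, had 61.7 and 58.6 CPM against 4.14, 11.7 and 15.1, and SESN1, a sestrin that restrains mTORC1, had 28.8 and 31.9 against 5.47, 5.92 and 8.85. CYFIP2 and POLH also rose, by 1.66 and 1.47 on the log2 scale. In the fit on 8 libraries alone, 17 of the 36 rose and none fell, and without control 20_2 as well 27 rose and none fell.

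Genes of proliferation were lower. Among 50 genes that act in S phase or its entry, 38 fell and none rose (median -0.94). MCM4, a subunit of the replicative helicase, had 82.4 and 85.5 CPM against 193, 210 and 245 in the controls, a log2 fold change of -1.37. CDC6, which loads that helicase, had 32.6 and 33.9 CPM against 81.2, 90.2 and 100.2 (-1.44). Neither gene's RPS3 libraries overlapped the controls. Of 40 mitosis and G2/M genes, 29 fell and none rose (median -1.09). AURKA, a kinase of the spindle poles, had 67.8 and 71.2 CPM against 141, 156 and 175, and CCNB1, the mitotic cyclin, had 81.0 and 83.9 against 157, 168 and 212. Averaged over the mitotic list, however, RPS3 libraries stood at -0.77 and -0.91 on the log2 scale relative to the control mean, and control 20_2 stood at -0.71, with the other controls at -0.30 to 0.47. Of 46 replication-dependent histone genes tested, 44 fell and none rose (median -1.18). H3C7, a histone H3 gene, had 11.6 and 13.3 CPM against 37, 44.7 and 84.7. The 2 RPS3 libraries averaged -1.19 and -1.10 over the histone list, control 20_2 was at 0.78, and the other controls at -0.29 to 0.18. Library 20_2 therefore lay toward the RPS3 libraries for mitosis and away from them for histones, and its part in these counts was tested by leaving it out. On the other 7 libraries alone, 23 replication, 20 mitotic and 36 histone genes fell and none rose. With all 8 libraries and no others, 15, 6 and 10 fell.

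mRNAs of the translation machinery fell where they changed. Of 47 large-subunit ribosomal protein mRNAs 24 fell and none rose (median -0.35), and of 32 small-subunit ones other than RPS3 10 fell and none rose (median -0.25). RPL3, a core protein of the peptidyl transferase region, had 445 and 468 CPM against 782, 910 and 1308 in the controls (-1.08). RPL5, of the 5S particle, fell by 0.42 on the log2 scale, and RPL27A and RPL10A fell by 0.96 and 0.89. RPS9 mRNA had 232 and 259 CPM against 296, 453 and 759 (-0.91 ± 0.23, adjusted p = 0.004017). Of 21 elongation factors and other mRNAs with a 5′ terminal oligopyrimidine (TOP) start, 8 fell and none rose (median -0.32). PABPC1, the cytoplasmic poly(A)-binding protein, had 772 and 748 CPM against 827, 1468 and 1975 (-0.98). EIF4B, a TOP mRNA that encodes a helicase cofactor of initiation, had 271 and 266 CPM against 442, 603 and 638 (-1.11). These mRNAs were below every control, by a margin that was narrow for PABPC1. Of 36 other initiation factor mRNAs, 5 fell and none rose (median -0.05). In the fit on 8 libraries alone, 2 large-subunit mRNAs, 0 small-subunit ones and 1 elongation or TOP mRNA passed, and without control 20_2 as well 7, 1 and 4, all lower. The large-subunit list mean was -0.42 and -0.36 in the RPS3 libraries, 0.32 in control 20_2 and -0.13 to 0.07 in the other controls. The small-subunit mean was -0.31 and -0.24, against 0.42 in control 20_2 and -0.16 to 0.08 in the others. Against the controls titled 11 alone, 24 large-subunit mRNAs fell and 1 rose (median -0.19). Of the small-subunit ones, 12 fell and none rose (median -0.13). Of the elongation and TOP ones, 12 fell and 1 rose (median -0.32). Ribosomal protein genes have many processed pseudogenes, and how reads shared with them were counted is not given in the sources used here.

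Among other fixed lists, the snoRNA host transcripts fell in 11 of 17 cases (median -0.47), with SNHG5, a TOP-type noncoding host, at 36.6 and 42.5 CPM against 69.6, 82.6 and 104.4. The integrated stress response list, targets of the factor ATF4, fell in 13 of 29 cases and rose in 1 (median -0.36). ATF4 mRNA had 247 and 260 CPM against 382, 452 and 627 (-0.88 ± 0.13, adjusted p = 1.457e-05), and MTHFD2, a mitochondrial folate enzyme, had 60.3 and 60.6 against 119, 161 and 204. The fall thus included the factor as well as its targets. Of 19 heat shock chaperones, 8 fell and none rose (median -0.51). HSPA1A had 9.45 and 9.35 CPM against 51.9, 56.9 and 98.6, and HSPA1B had 4.75 and 5.15 against 29.4, 30.6 and 54.1. These 2 genes are near-identical copies whose reads the counting could have split, so their values are not independent. Over the heat shock list, control 20_2 at -0.43 lay close to the RPS3 libraries at -0.48 and -0.55, and the other controls at -0.03 to 0.22. Of 25 sterol synthesis genes 7 fell and none rose (median -0.23). Among the 25 genes of matrix and adhesion, 7 rose and 0 fell (median 0.33). The matrix list mean was 0.44 and 0.48 in the RPS3 libraries, 0.25 and 0.26 in the controls titled 11 and -0.19 to -0.08 in the other controls, and against the controls titled 11 alone 9 matrix genes rose and 1 fell (median 0.09). SDC4, a cell surface heparan sulfate proteoglycan, had 103 and 99.0 CPM against 25.4, 35.1 and 41.1, above all controls. On the 8 libraries alone, 1 snoRNA host, 1 stress response, 2 heat shock and 0 sterol genes fell and 3 matrix genes rose. Without control 20_2 as well, 3, 5, 3 and 3 fell and 6 matrix genes rose.

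The largest changes among genes with a mean of at least 5 CPM and no overlap with controls lay partly outside these lists. ACTA2, smooth muscle actin, had 50.8 and 58.6 CPM against 6.02, 6.64 and 8.83 (2.97 ± 0.11, adjusted p = 4.585e-16). TPM4, a tropomyosin, had 617 and 592 CPM against 105, 137 and 157 (2.14 ± 0.09). DIO2, a thyroid hormone deiodinase, had 30.2 and 27.3 against 2.34, 5.29 and 7.42. Of the 15 actin and tropomyosin genes tested, 5 rose and 1 fell (median 0.20). The largest fall beside RPS3 was in SLC25A1, the mitochondrial citrate carrier, with 6.64 and 5.48 CPM against 58.1, 80.8 and 172 (-3.99 ± 0.34, adjusted p = 2.373e-09). RTN4RL2, a Nogo receptor homologue, had 4.98 and 6.27 CPM against 47.1, 93.2 and 144.7. PYGB, brain-type glycogen phosphorylase, had 35.4 and 33.0 against 189, 356 and 510 (-3.25 ± 0.27). None of these 3 overlapped the controls. PDIA3, a disulfide isomerase of the endoplasmic reticulum, had 40.0 and 41.6 CPM against 181, 241 and 255 (-2.47).

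**Figure D2:**
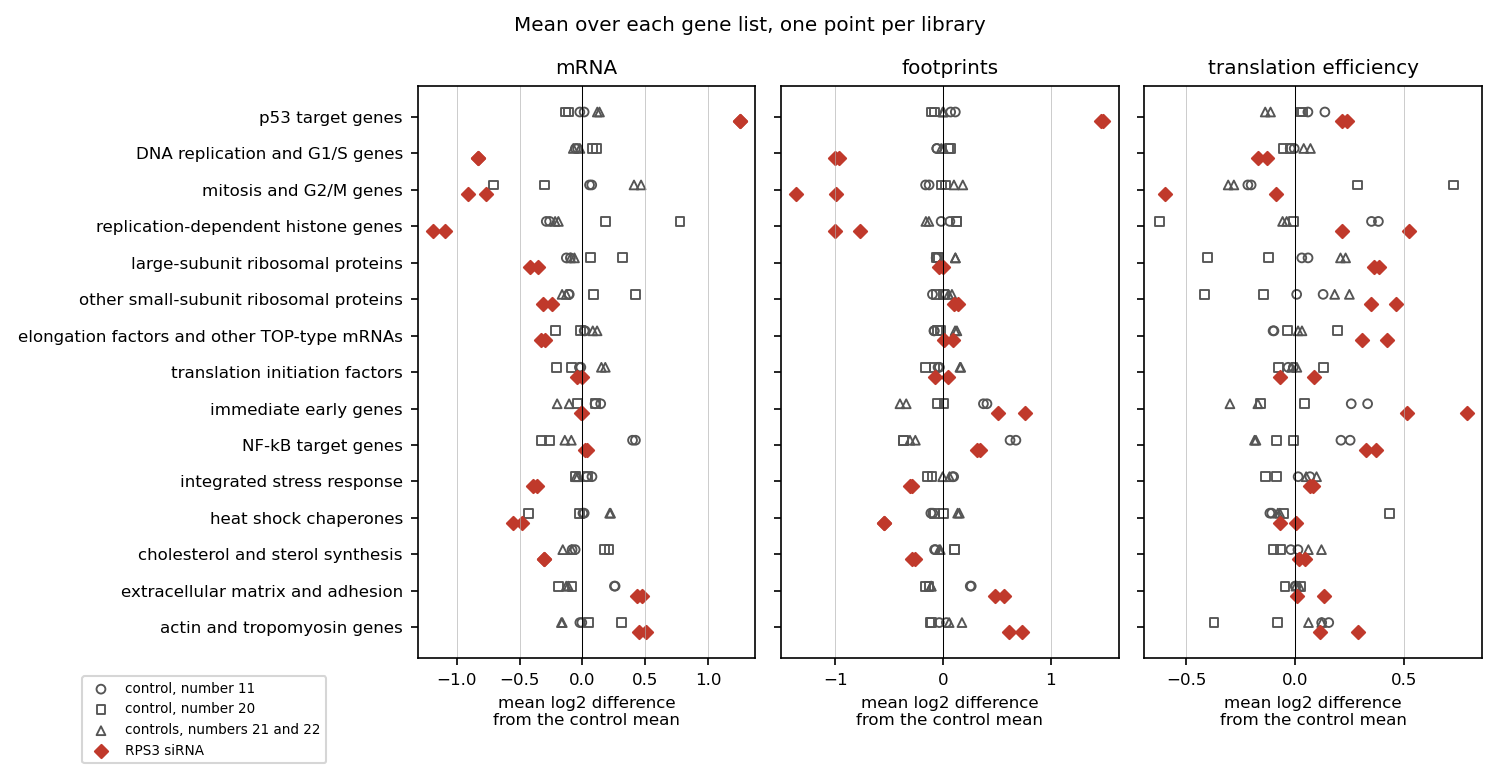
Mean log2 value of each gene list relative to the mean of the 6 controls, for mRNA, footprints and the footprint-to-mRNA ratio, 1 point per library. The p53 list stands at 1.25 in both RPS3 mRNA libraries and at 1.49 and 1.47 in their footprints, apart from the controls, while for mitosis mRNA control 20_2 at -0.71 lies close to the RPS3 libraries at -0.77 and -0.91.

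Footprints of p53 targets were also higher and those of proliferation genes lower, while the medians of ribosomal proteins and elongation factors lay near that of all genes. Of 12414 genes tested, 41.5% passed, 2428 higher (19.6%) and 2725 lower (22%), around a median of -0.02. With both RPS3 libraries also outside the controls' range, the shares were 16.4% and 17.9%. The fit on 8 libraries alone called 1029 and 1291, on those without control 20_2 it called 722 and 977, and without RPS3 library 1 the full fit called 1283 and 1494. Control 20_2 did not stand apart in footprints, its correlations with the other 7 libraries running from 0.947 to 0.993.

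Of 36 p53 targets, 32 rose in footprints and none fell (median 1.33). BTG2 had 101 and 89.7 CPM in the RPS3 libraries against 4.45, 6.06 and 7.12 in the controls (4.04 ± 0.15, adjusted p = 9.081e-18). CDKN1A had 714 and 527 CPM against 64.5, 81.3 and 128 (2.76 ± 0.17, adjusted p = 5.401e-13). MDM2 had 496 and 624 CPM against 60.3, 72.6 and 132 (2.67 ± 0.18, adjusted p = 2.834e-12). In all 3 genes the RPS3 libraries lay above every control by more than they differed from each other. FDXR, ferredoxin reductase, had 517 and 364 CPM against 54.1, 80.9 and 89.8, and TP53I3, an oxidoreductase, had 496 and 487 against 143, 156 and 171. MYC footprints, at 272 and 266 CPM against 207, 215 and 324, lay within the controls' range (0.14 ± 0.13, adjusted p = 0.4096), and MYC mRNA, at 171 and 176 CPM against 175, 207 and 223, did not pass either (-0.23 ± 0.10, adjusted p = 0.1001). In the fit on 8 libraries alone, 30 of the 36 rose and none fell, and without control 20_2 as well 27 rose and none fell.

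Of 49 replication genes, 42 fell in footprints and none rose (median -0.96). RRM2, the regulated subunit of ribonucleotide reductase, had 147 and 158 CPM against 398, 457 and 504 (-1.58). All 40 mitotic genes fell (median -1.19). KIF20A, a kinesin of the midzone, had 50.2 and 58.2 CPM against 140, 149 and 163 (-1.47). CDC25A, the phosphatase that activates G1/S kinases, fell by 1.74 on the log2 scale, and CCNA2, cyclin A, by 1.40. Of 48 histone genes 40 fell and none rose (median -0.90). With the 8 libraries alone, 38 replication, 36 mitotic and 26 histone genes fell and none rose, so in that fit these counts moved less than those of mRNA. Without control 20_2 as well, 33 replication, 36 mitotic and 21 histone genes fell and none rose. There the histone count moved more than in mRNA, where 36 histone genes fell.

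Among translation genes the footprint changes went both ways. Of 45 large-subunit genes 12 rose and 8 fell (median 0.03), of 31 small-subunit genes 9 rose and 4 fell (median 0.09), and of 21 elongation and TOP genes 6 rose and 2 fell (median -0.04). RPS19, a small-subunit protein mutated in Diamond-Blackfan anaemia, had 6800 and 6258 CPM against 2527, 2984 and 3190 (1.17 ± 0.08, adjusted p = 1.179e-11). RPLP2, an acidic stalk protein, had 1896 and 1632 CPM against 852, 1065 and 1249 (0.75). Both were above every control. EIF3F, a subunit of initiation factor eIF3, had 168 and 148 CPM against 60.5, 62.0 and 86.2 (1.18), and EEF1G, a subunit of the factor that recharges eEF1A, had 334 and 295 against 119, 171 and 191 (0.99 ± 0.12). Falls were seen in RPS12, with 51.3 and 58.1 CPM against 97.3, 106 and 165 (-1.16 ± 0.21), and in PABPC1, with 136 and 120 against 240, 258 and 275 (-1.01). RPL41, the shortest ribosomal protein, fell by 1.11. With the 8 libraries alone, 4 large-subunit genes rose and 3 fell, and 3 small-subunit genes rose and 3 fell.

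Of 24 immediate early genes, those switched on without new protein synthesis, 13 rose in footprints and 2 fell (median 0.60). IER2 had 121 and 95.0 CPM against 24.8, 36.4 and 41.2 (1.66 ± 0.15, adjusted p = 6.627e-10), and CCN1, a matricellular protein, had 171 and 166 against 59.2, 82.3 and 86.4. Averaged over the list, the RPS3 footprint libraries stood at 0.77 and 0.51 and the controls at -0.40 to 0.41, the controls titled 11 being the high ones. Against the controls titled 11 alone, 10 immediate early genes rose and 4 fell (median 0.13). Extracellular matrix genes rose in 17 of 25 cases and fell in 2 (median 0.48). Their list mean was 0.57 and 0.48 in the RPS3 libraries, 0.25 and 0.26 in the controls titled 11 and -0.16 to -0.11 in the other controls, and against the controls titled 11 alone 9 rose and 2 fell (median 0.19). Actin and tropomyosin genes rose in 9 of 17 and fell in 1 (median 0.54). SDC4 had 160 and 128 CPM against 28.7, 35.4 and 45.1 (2.01 ± 0.12). Heat shock chaperones fell in 12 of 19 cases and none rose (median -0.43), with HSP90AA1 at 776 and 1133 CPM against 1659, 1971 and 2248. Sterol genes fell in 10 of 25 cases and rose in 3 (median -0.17). The stress response list fell in 16 of 29 cases and rose in 5. ATF4 footprints were at 6.82 and 6.98 CPM against 15.4, 17.6 and 19.6 (-1.36 ± 0.22, adjusted p = 1.2e-05). DDIT4 and TRIB3, also ATF4 targets, rose by 1.05 and 1.28. On the 8 libraries alone, 8 immediate early genes rose and 1 fell, 6 matrix genes rose, and 9 heat shock, 7 sterol and 11 stress response genes fell. Without control 20_2 as well, these were 7 and 1, 5, and 6, 3 and 8.

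The largest footprint rises outside the p53 list were ACTA2, with 108 and 96.1 CPM against 8.74, 10.5 and 14.1 (3.21 ± 0.12), OSBPL5, LMTK3 and ZNF469 (3.14, 2.86 and 2.78), and TUFT1, a tuftelin, with 62.7 and 62.4 CPM against 8.32, 9.54 and 9.91 (2.74 ± 0.10). FEZF2, a transcription factor, was less even, with 87.7 and 24.4 CPM against 0.844, 4.59 and 17.7 (2.96 ± 0.60). Its RPS3 libraries differed from each other by more than library 2 differed from the highest control. The largest falls were SLC25A1, with 6.89 and 4.69 CPM against 73.9, 124 and 145 (-4.28 ± 0.25), and JRKL, a transposase-derived DNA-binding protein, with 0.886 and 0.494 CPM against 6.73, 8.52 and 13.5 (-3.77 ± 0.41, adjusted p = 2.399e-08). The JRKL values rest on 13 and 8 counts. PYGB fell by 3.30 and FAM20B, a xylose kinase of proteoglycan synthesis, by 3.19. GPSM2, a protein of spindle orientation, had 2.73 and 3.09 CPM against 19.7, 23 and 25.5 (-2.96 ± 0.17).

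**Figure D3:**
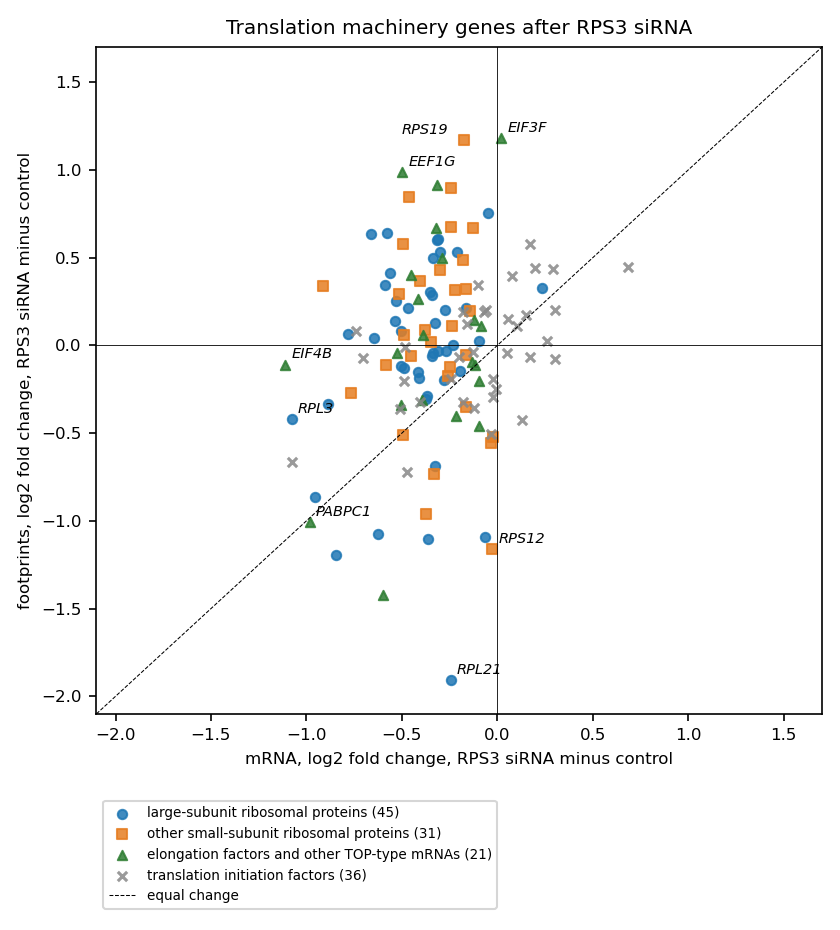
Log2 fold change of footprints (vertical axis) against that of mRNA (horizontal axis) for ribosomal proteins, elongation and TOP genes and initiation factors, RPS3 knockdown against control, 1 point per gene, with the diagonal of equal change. RPS19 at -0.17 for mRNA and 1.17 for footprints lies above the diagonal, and RPS12 at -0.03 and -1.16 lies below it.

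The ratio of footprints to mRNA in each lysate is called translation efficiency here. Each assay was scaled on its own, so a change of the ratio shared by all genes would not show. In the fit over 38 lysates the ratio rose for some ribosomal proteins, elongation factors and immediate early genes. Other genes changed in both directions. Of 12203 genes tested in 1 edgeR model over both assays with a term per lysate, 11.1% passed, 840 higher (6.88%) and 518 lower (4.24%), around a median of 0.00. With both RPS3 lysates also outside the controls' range, the shares were 5.38% and 3.78%. These counts lean on the spread pooled over 16 targets. On the 8 lysates alone only HEXIM1 and EI24 passed, 1 in each direction, and when control 20_2 was also left out 9 genes were higher, among them HEXIM1, EEF1G, RPS19, EIF4B, NOP53 and IER2, and 17 were lower, among them EI24, JRKL and DDIT3. Without RPS3 library 1 in the full fit the counts were 23 and 26, without library 2 they were 852 and 450, and without control 11_2 1263 genes were higher. The median SD of the log2 ratio was 0.40 between controls and 0.24 between the 2 RPS3 lysates. No list had a member passing on the 8 lysates alone, and without control 20_2 as well none had more than 2, so the list counts that follow hold for the pooled fit only.

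HEXIM1, an inhibitor of the elongation factor P-TEFb, had the smallest adjusted p in this test. Its log2 ratio was 0.71 and 0.53 in the RPS3 lysates against -1.14, -0.98 and -0.81 in the lowest, median and highest control (1.60 ± 0.13, adjusted p = 2.232e-08). HEXIM1 mRNA was at 120 CPM in both RPS3 libraries, inside the controls' 95.9 to 142, and its footprints were at 196 and 173 CPM against 46.6 to 77.3. The ratio thus rose through footprints with mRNA at the control level. EI24, a p53-induced protein of the endoplasmic reticulum, went the other way, at -4.87 and -4.50 against -3.16, -2.83 and -2.60 (-1.85 ± 0.20, adjusted p = 2.568e-06). EI24 mRNA rose (0.66 ± 0.11, adjusted p = 7.646e-05) while its footprints fell (-1.18 ± 0.20, adjusted p = 3.545e-05). On the 8 lysates alone the adjusted p was 0.041 for HEXIM1 and 0.0335 for EI24.

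The start of an mRNA bears on its translation, since TOP mRNAs open with an uninterrupted run of C and T that mTORC1 and LARP1 read. The first transcribed bases of genes described in this section are shown here, taken from RefSeq (GRCh38.p14) with 15 bases before the annotated start and 15 from it. Capitals mark a run of at least 5 C or T bases that overlaps the 5 bases on either side of the start.
RPS3, chr11:75399503-75399532, plus strand: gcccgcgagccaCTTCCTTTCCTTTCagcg
RPS19, chr19:41860240-41860269, plus strand: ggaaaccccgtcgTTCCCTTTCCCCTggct
RPS9, chr19:54200843-54200872, plus strand: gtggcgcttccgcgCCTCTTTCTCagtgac
RPL14, chr3:40457324-40457353, plus strand: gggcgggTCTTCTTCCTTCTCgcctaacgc
RPS12, chr6:132814554-132814583, plus strand: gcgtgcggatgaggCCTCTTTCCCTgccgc
EEF2, chr19:3985449-3985478, minus strand: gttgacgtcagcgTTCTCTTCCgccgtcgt
EIF4B, chr12:53006441-53006470, plus strand: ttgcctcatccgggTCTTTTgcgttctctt
EEF1G, chr11:62573877-62573906, minus strand: tctcccgggcggcttactttgcggcagcgc
HEXIM1, chr17:45148460-45148489, plus strand: agaggactgggagacagcagttggaagttg
IER2, chr19:13150396-13150425, plus strand: atgcccccgccccttagCCCTCTCgtgccg

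EEF1G and HEXIM1 have no such run in this window. A run was found at 82.0% of 50 large-subunit starts, 89.3% of 28 small-subunit starts and 82.4% of 17 elongation and TOP starts, against 35.7% of all 35114 annotated starts. Among genes whose ratio rose, 36.4% of 964 starts in 668 genes had a run. Among those whose ratio fell it was 35.8% of 662 starts in 426 genes, and among all genes tested for the ratio 35.5%. A gene can have several starts, and not every called gene is covered. The elongation and TOP list was drawn up as mRNAs of the TOP type, so its share follows from that choice and is no separate result. The run was also common in the ribosomal protein lists, and it was near the background among called genes as a whole.

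Of 45 large-subunit genes 18 rose in the ratio and 1 fell (median 0.38), of 31 small-subunit genes 10 rose and 1 fell (median 0.44), and of 21 elongation and TOP genes 8 rose and none fell (median 0.28), while none of 36 initiation factors of the separate list passed (median 0.05). RPS19, shown above with a run of C and T at its start, had log2 ratios of 2.85 and 2.58 against 0.81, 1.5 and 1.69 (1.31 ± 0.16, adjusted p = 7.487e-06). EEF1G, without such a run, had -1.58 and -1.81 against -3.74, -3.03 and -2.95 (1.44 ± 0.16, adjusted p = 2.568e-06). EIF4B had -2.54 and -2.29 against -3.65, -3.48 and -3.01 (1.00 ± 0.13, adjusted p = 3.699e-05). RPL14 had 0.48 and 0.52 against -0.34, -0.25 and -0.10 (0.74 ± 0.11, adjusted p = 0.0001548). In these 4 genes the RPS3 lysates did not overlap the controls. RPL7A rose by 1.22, RPS9 by 1.20 and EEF2, the translocation factor, by 0.81. RPS12 was the small-subunit gene that fell (-1.11 ± 0.25, adjusted p = 0.006022). The list means were 0.38 and 0.36 for the large subunit in the RPS3 lysates, against -0.40 to 0.23 in the controls, and 0.46 and 0.35 for the small subunit against -0.42 to 0.25. In both lists the lowest control was 20_2, and the highest was a control titled 21 or 22.

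Of 24 immediate early genes 11 rose in the ratio and none fell (median 0.58), and against the controls titled 11 alone 5 rose and none fell (median 0.35). IER2 had 1.30 and 0.85 against -0.79, -0.42 and -0.08 (1.47 ± 0.19, adjusted p = 2.3e-05). DUSP1, a phosphatase of MAP kinases, had 1.11 and 0.75 against -0.72, -0.07 and 0.26 (1.05 ± 0.16, adjusted p = 0.0002275). IER5, an adaptor of heat shock factor signalling, had 2.14 and 1.58 against -0.17, 0.36 and 1.09 (1.42 ± 0.25). All 3 were above every control. DUSP1 mRNA fell (-0.48 ± 0.10, adjusted p = 0.0007642) while its footprints rose (0.57 ± 0.12, adjusted p = 0.0005105). NOP53, a ribosome biogenesis factor also called GLTSCR2, showed the same opposition, with mRNA at -0.73 ± 0.15, footprints at 0.83 ± 0.15 and a ratio of 0.91 and 0.70 against -1.07, -0.79 and -0.36 (1.56 ± 0.17, adjusted p = 2.568e-06).

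Among p53 targets 9 rose in the ratio and 2 fell (median 0.32), but against the controls titled 11 alone 1 rose and none fell (median 0.05). BTG2 had -0.32 and -0.56 against -1.85, -1.42 and -0.99 (1.01 ± 0.21, adjusted p = 0.003866), and CDKN1A had 0.10 and -0.42 against -1.73, -0.96 and -0.59 (0.82 ± 0.20, adjusted p = 0.01095). MDM2 differed by 0.59 ± 0.23 and did not pass (adjusted p = 0.09836). Of 44 histone genes 9 rose and none fell (median 0.42), with H2BC18 at 1.22 and H1-4 at 0.78, but against the controls titled 11 alone 1 rose and 1 fell (median 0.03). The histone list mean was 0.52 and 0.22 in the RPS3 lysates, and the controls titled 11, at 0.38 and 0.35, lay between these. For mitotic genes, of which 3 fell, the list mean was -0.60 in RPS3 lysate 1 and -0.09 in lysate 2, so the RPS3 lysates differed from each other by more than lysate 2 differed from the controls titled 11, at -0.22 and -0.20.

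The largest fall of the ratio among genes with a mean of at least 5 CPM in both assays was in JRKL, at -2.48 and -2.94 against 0.23, 0.40 and 2.28 (-3.51 ± 0.48, adjusted p = 5.39e-05). JRKL mRNA was at 5.43 and 4.49 CPM within the controls' 1.74 to 9.82 (-0.36 ± 0.33, adjusted p = 0.4815). DDIT3, the stress factor CHOP, whose mRNA carries an inhibitory upstream reading frame, had -3.29 and -2.81 against -1.57, -1.32 and -1.13 (-1.74 ± 0.20, adjusted p = 6.616e-06). DDIT3 mRNA was at 44.3 and 40.0 CPM, inside the controls' 36.7 to 46.6, and its footprints at 4.43 and 5.62 against 12.9 to 21.1. JRKL and DDIT3 thus lost footprints with no called change of mRNA. FAM81A, ZNF146, C12orf75, CCNI, AADAT and NTAN1 fell by 2.52, 1.93, 1.8, 1.8, 1.77 and 1.76.

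**Figure D4:**
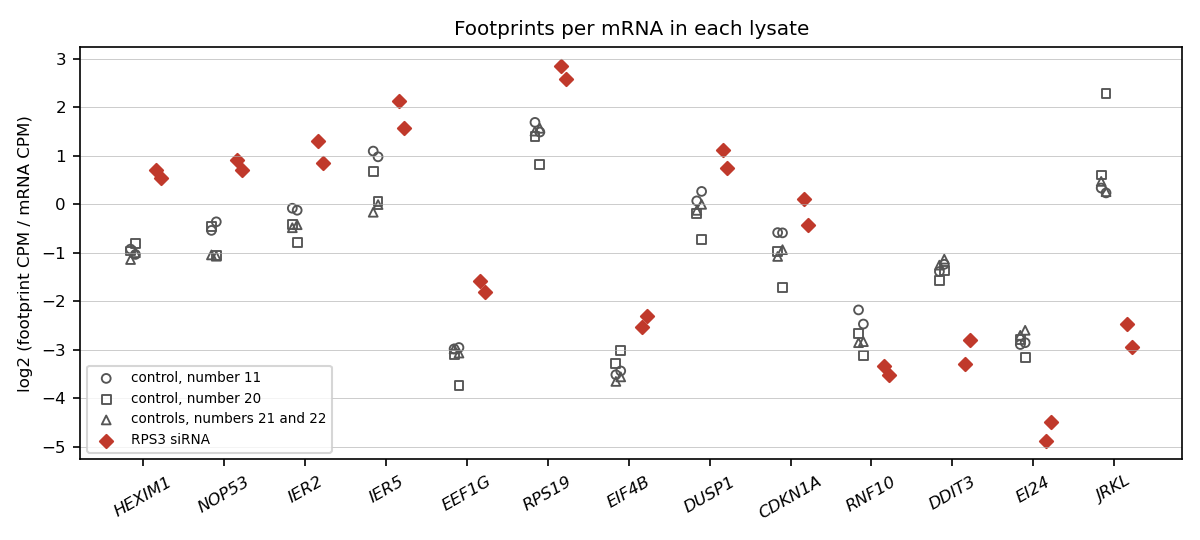
Log2 ratio of footprint to mRNA CPM for genes named in the text, 1 point per lysate for 2 RPS3 lysates and 6 controls. HEXIM1 at 0.71 and 0.53 and RPS19 at 2.85 and 2.58 lie above every control, and JRKL, EI24 and DDIT3 lie below every control.

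Counts in the lists tied to RPS3's other known roles stand against the 24.3% of all genes called in mRNA and the 41.5% in footprints, and nothing particular to these lists is read from them. RNF10, the ligase for RPS3, fell in every readout. Its mRNA was at 153 and 167 CPM against 196, 207 and 307 (-0.49 ± 0.12, adjusted p = 0.002391), its footprints at 15 and 14.4 against 27.3, 35.7 and 45.8 (-1.24 ± 0.16, adjusted p = 7.121e-07), and its log2 ratio at -3.34 and -3.52 against -3.12, -2.75 and -2.18 (-0.75 ± 0.17, adjusted p = 0.006357). The RPS3 libraries were below every control in each. ZNF598 and LTV1 mRNA, at 0.06 and 0.29, did not pass (adjusted p = 0.8515 and 0.5363), nor did RELA mRNA at -0.03 (adjusted p = 0.8871). Of 29 genes of 40S ubiquitination and ribosome quality control, 4 rose and 3 fell in mRNA (median -0.01) and 9 rose and 7 fell in footprints (median 0.02; 4 and 7 against the controls titled 11 alone). The ASC-1 complex subunit ASCC2, which helps split collided ribosomes, rose by 0.72 and 0.83, and G3BP1, a stress granule protein, fell by 0.57 in footprints while its paralogue G3BP2 rose by 0.79. Of 46 genes of 40S biogenesis, 2 rose and 7 fell in mRNA, with NAT10, the 18S rRNA acetyltransferase, at 44.2 and 46.9 CPM against 64.7, 86.1 and 110.8 (-0.90 ± 0.13, adjusted p = 1.126e-05).

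Of 26 NF-kB target genes, 3 rose and 4 fell in mRNA (median 0.00), and of 27 in footprints 7 rose and 1 fell (median 0.25). The NF-kB list mean was 0.02 and 0.04 in the RPS3 mRNA libraries, between the controls titled 11 at 0.42 and 0.40 and the other controls at -0.33 to -0.09. In footprints it was 0.32 and 0.35 in the RPS3 libraries, again between the controls titled 11 at 0.68 and 0.62 and the other controls at -0.37 to -0.26. Against the controls titled 11 alone, 3 rose and 9 fell in mRNA (median -0.23) and 3 rose and 11 fell in footprints (median -0.16), so the direction of this list turned with the controls used. CXCL5 and CXCL2, neutrophil chemokines, fell by 1.01 and 0.77 in mRNA, and CSF1 and CFLAR rose by 0.52 and 0.44. Of 21 base excision repair genes, 8 fell and 1 rose in mRNA (median -0.33), and of 20 in footprints 7 fell and 2 rose. UNG, the uracil glycosylase, fell by 0.70 in mRNA, and NEIL3, a glycosylase of replicating cells, by 1.5 in footprints. TDG, the thymine glycosylase, rose in footprints with 51.7 and 56.7 CPM against 18.6, 24.5 and 33.6 (1.13).

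RPS3 knockdown was also set beside knockdown of other small-subunit proteins. The RPS3 libraries were compared with 22 libraries of 11 other targets of the small subunit, each with 2 libraries, with no control library in the contrast. How strongly each of those targets was lowered was not tested, so differences in knockdown strength cannot be told apart from differences between targets. p53 targets were again higher and proliferation genes lower in RPS3 cells. In mRNA 13.1% of genes passed, 843 higher (5.55%) and 1141 lower (7.51%). In footprints 31.4% passed, 2152 higher (17.3%) and 1750 lower (14.1%), and in the ratio 1.59%, 144 higher (1.18%) and 50 lower (0.410%). Called genes whose RPS3 libraries also lay outside the range of all 22 made up 1.49% (higher) and 3.15% (lower) in mRNA, 3.62% and 3.96% in footprints, and 0.311% and 0.123% in the ratio. Without RPS3 library 1 the mRNA counts were 237 and 364, the footprint counts 493 and 608 and the ratio counts 0 and 1. Without library 2 the mRNA counts were 245 and 418.

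Of 36 p53 targets, 21 rose and none fell in mRNA (median 0.51), and 29 rose and 1 fell in footprints (median 0.69). TP53INP1 mRNA, at 61.7 and 58.6 CPM, was above the 22 libraries, whose lowest, median and highest values were 8.93, 14.5 and 50.8 (1.87 ± 0.19, adjusted p = 1.542e-07). MDM2 mRNA, at 699 and 622 CPM, was above 77.5, 282 and 501 (1.36 ± 0.25, adjusted p = 0.0004694). CDKN1A differed by 1.12 ± 0.12 in mRNA and 1.65 ± 0.15 in footprints, and BTG2 by 1.40 ± 0.10 and 2.0 ± 0.12, all called. Of 50 replication genes, 21 fell and 1 rose in mRNA (median -0.49), and of 40 mitotic genes 18 fell (median -0.50), with 36 of 40 lower in footprints (median -0.67). TPM4, among the largest rises against control, did not differ by a called amount from the other targets (-0.06 ± 0.09, adjusted p = 0.7615), and HEXIM1 footprints did not either (0.04 ± 0.13, adjusted p = 0.8436). RNF10 footprints differed by -0.27 ± 0.14 (adjusted p = 0.1607).

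NF-kB targets rose in 8 of 26 mRNAs and 13 of 27 in footprints, and none fell (medians 0.36 and 0.52). Against the 4 of these targets with sample numbers of 1 to 5, near RPS3's own, 3 rose and 2 fell in mRNA and 6 rose in footprints (medians 0.07 and 0.02). Immediate early genes rose in 14 of 24 footprint tests and fell in 2 (median 0.65), and against those 4 targets in 8 with 1 lower (median 0.29). The p53 list changed less with this choice, with 22 of 36 mRNAs higher, none lower and a median of 0.63.

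ANKRD33B, an ankyrin repeat protein, had 234 and 253 CPM of mRNA against 38.4, 92.3 and 139 (1.48 ± 0.08, adjusted p = 3.642e-12) and 46.8 and 34.5 CPM of footprints against 1.92, 7.95 and 13.2 (2.48 ± 0.18). CASTOR1, an arginine sensor of mTORC1, had 42.4 and 40.0 CPM of mRNA against 7.82, 13.3 and 25.8 (1.5 ± 0.15). CDK6, a G1 kinase, had 375 and 327 CPM against 56.6, 150 and 290 (1.37 ± 0.34), although against control its difference of 0.57 ± 0.41 did not pass (adjusted p = 0.3531). In each, both RPS3 libraries exceeded all 22. Among the falls, RPS3 mRNA was at -5.42 ± 0.27. SLC25A1 mRNA, with 6.64 and 5.48 CPM, was below 12.2, 70.9 and 135 (-3.41 ± 0.32), RTN4RL2 differed by -3.42 ± 0.33, PYGB by -3.22 ± 0.26, RNF170, a ubiquitin ligase of the endoplasmic reticulum, by -2.72 ± 0.24 and NEURL1B by -2.53 ± 0.25. JRKL footprints, with 0.886 and 0.494 CPM, were below 4.35, 9.85 and 17.5 (-3.90 ± 0.39, adjusted p = 1.997e-08). Both contrasts rest on the same 2 RPS3 libraries, so they are not independent.

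In the ratio, JRKL was again lowest (-3.72 ± 0.45, adjusted p = 7.911e-05). AZIN1, the antizyme inhibitor of polyamine metabolism, had -1.81 and -1.68 against -1.5, -0.65 and -0.09 (-1.06 ± 0.19, adjusted p = 0.00782). DUSP1, at 1.11 and 0.75, was above -0.64, -0.22 and 0.63 (0.98 ± 0.15, adjusted p = 0.001399). DDIT3 and EI24 differed by -1.27 ± 0.19 and -1.22 ± 0.19 (adjusted p = 0.001399 and 0.001425). The ratio rose in 1 of 45 large-subunit, 3 of 31 small-subunit and 3 of 21 elongation and TOP genes and fell in none. The medians were 0.17 and 0.24 for the subunits around a median of 0.05 for all genes. The other targets are themselves members of the small-subunit list, so for those genes the reference includes libraries of their own siRNA.

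**Figure D5:**
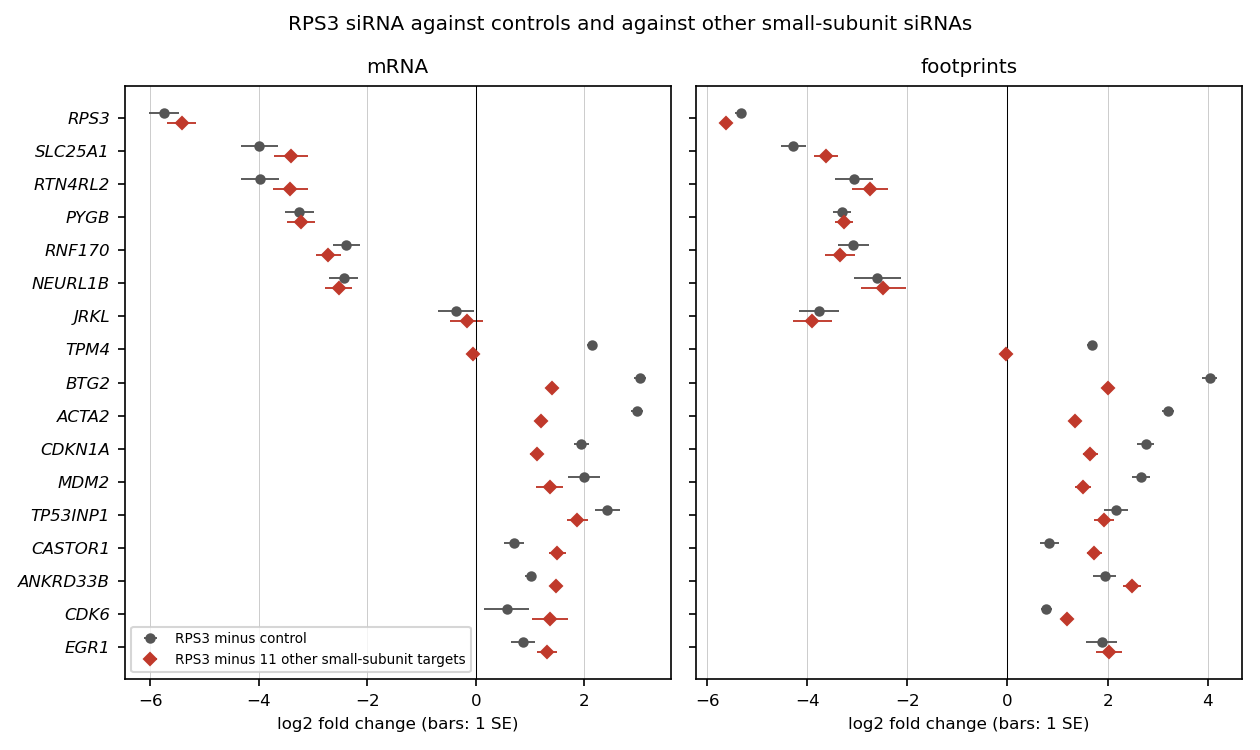
Log2 fold change of genes named in the comparison with 11 other small-subunit targets, for mRNA and footprints, with bars of 1 SE. Grey points give RPS3 knockdown against control and red points RPS3 knockdown against the other targets. SLC25A1, RTN4RL2 and PYGB lie well below 0 in both contrasts and both assays (PYGB mRNA at -3.25 and -3.22), while TPM4 mRNA stands at 2.14 against control and at -0.06 against the other targets.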

How the data were processed

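Counts over exons (RNA-seq) and over coding sequences (Ribo-seq) were used as the authors deposited them, as raw counts per gene. The submitters' processing notes name STAR 2.6.1, the build GRCh38, cutadapt 1.8.1 and bcl2fastq 2.20.0.422. How reads were assigned to genes, with which annotation and strand setting, is not given in the sources used here. There were 41379 gene identifiers for RNA-seq and 19217 for Ribo-seq, of which 31346 and 18756 had a symbol other than the identifier itself. The columns of the controls titled 21 and 22 are named as replicates 1 and 2 of a pair, which the titles do not give. Columns of the same name in both assays were taken as 1 lysate, and their order otherwise enters only the replicate block and the leaving out of single libraries.

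Genes needed at least 1 CPM in at least 2 of the 8 RPS3 and control libraries. edgeR 4.0.16 (R 4.3.3) with TMM scaling and the quasi-likelihood test was fitted over 38 libraries per assay, with Benjamini-Hochberg adjustment over all genes tested and a threshold of 0.05. The SE is the fold change divided by the root of the F statistic. The translation model held both assays and a term per lysate, since each lysate went into both, with libraries paired by column name. For RPS15, the RNA-seq titles carry another sample number than the Ribo-seq titles and the columns. Per-lysate ratios used a prior count of 2. Within lysates, deviations of the 2 assays from their group means correlated at -0.287 for RPS3 and at 0.165 to 0.667 for controls. The group mean was over 2 libraries for RPS3 and over 6 for the controls. The control values therefore also carry differences between control pairs, and they cannot be compared directly with the RPS3 value. Library 1 of RPS3 and number 1 controls correlated at 0.244 in mRNA and -0.00957 in footprints, and the labels do not say that a number marks a shared day or batch, so the numbers were not used as pairs in the main fit. No 2 replicate libraries agreed within sampling noise. A count of 3, taken as the limit of detection, was 0.0977 CPM in the shallowest mRNA library and 0.201 in the shallowest footprint library, for counting error only.

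On simulated data with known answers, 2-fold changes were recovered in 94% of genes for mRNA, 86% for footprints and 42% for translation efficiency against control, and 4-fold changes in 100% of each. Genes called in error numbered 10 for mRNA, 9 for footprints and 9 for translation efficiency. Whether these rates hold for the real libraries, with their spread between control pairs and library 20_2, was not tested. Named genes were the 8 largest called changes each way per readout (6 against the other targets) with a mean of at least 5 CPM and RPS3 libraries outside the comparison range, up to 4 called members per list by smallest p, and RPS3, CDKN1A, MDM2, MYC, RELA, LTV1, RNF10 and ZNF598. A few items that this rule names are not reported here. The members and lists were chosen with earlier results of these data known. Alternatives covered scaling, filters, DESeq2 1.42.0, limma 3.58.1, the libraries in the fit and leaving out each replicate. Those concerning control 20_2, controls 21 and 22, sample numbers 1 to 5 and crossed RPS3 lysates were chosen after seeing the data.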

Additional observations from a re-analysis of the deposited data

Results flagged for a closer look

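The 86 checks over the 6 controls covered the list means and the CPM of RPS3 mRNA and footprints. In 3 of them, all list means, a control library had a gap to the nearest other of over 0.625 of the whole range. Chance alone marks about 1 group in 20. The mRNA mean of the snoRNA host transcripts was -0.134 on the log2 scale in control 20_1 and 0.00425 to 0.0674 in the other 5, with the RPS3 libraries lower still at -0.485 and -0.406. The footprint-to-mRNA ratio of the heat shock chaperones was 0.431 in control 20_2 and -0.117 to -0.0539 in the other 5, with the RPS3 lysates at -0.0699 and 0.000676. The ratio of the extracellular matrix list was -0.0475 in control 20_1 and -0.000912 to 0.0248 in the other 5, with the RPS3 lysates at 0.13 and 0.00755.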

How the results depend on the processing

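Counts of called genes depended mostly on the libraries that entered the fit, and the cause of each shift was not tested. On the RPS3 and control libraries alone, 245 mRNAs were higher and 236 lower, 1029 and 1291 genes in footprints, and 1 and 1 in the ratio. With control 20_2 left out of that fit, the counts were 774 and 743, 722 and 977, and 9 and 17. With only the controls titled 11 in the contrast, 2744 mRNAs were higher, and the ratio was higher in 238 and lower in 318 genes. Without the controls titled 21 and 22, 2473 mRNAs were higher and 3215 lower, and 778 genes had a lower ratio. Without any filter 17476 genes were tested for the ratio and 502 were higher. With no replicate block, that is without the lysate term, the ratio was higher in 277 and lower in 218 genes. With the RPS3 lysates crossed these counts were 912 and 561 against control and 189 and 57 against the other targets. The replicate block on the library number gave 1582 and 2012 mRNAs and 2411 and 2737 genes in footprints against control, and 804 and 1093, 2149 and 1767 against the other targets. It moved no count by 1.5 times.

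Leaving out 1 library at a time in the full fit gave 835 to 2389 higher and 923 to 2726 lower mRNAs, 1283 to 2631 and 1494 to 2910 genes in footprints, and 23 to 1263 and 26 to 762 in the ratio against control. The low ends came without RPS3 library 1. Against the other targets, leaving out 1 RPS3 library gave 237 to 245 and 364 to 418 mRNAs, 493 to 1801 and 608 to 1532 genes in footprints, and 0 to 203 and 1 to 48 in the ratio. For the ratio higher than in the other targets, the count was 60 with the minimum at 5 CPM (10324 genes tested), 90 with limma, 57 with no filter, 38 with no replicate block and 2 against the 4 targets with sample numbers of 1 to 5. For the ratio lower than in the other targets it was 33 with no filter, 22 with no replicate block and 1 against those 4 targets.

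The named genes that changed sign under some setting passed the threshold in none of those settings. With only the controls titled 11, the log2 fold change was -0.207 for MYC footprints, -0.05546 for RELA footprints, 0.01747 for RELA mRNA, and 0.2321 for LTV1 and -0.07501 for RELA in the ratio. RELA mRNA was at 0.000707 without a filter and at 0.08962 on the 8 libraries without control 20_2, where the LTV1 ratio was 0.07946. ZNF598 mRNA was at -0.1002 without the controls titled 21 and 22. Leaving out 1 library at a time moved LTV1 footprints between -0.03121 and 0.5016, ZNF598 footprints between -0.1674 and 0.0509, RELA mRNA between -0.07982 and 0.06861, ZNF598 mRNA between -0.01603 and 0.1671, the LTV1 ratio between -0.5362 and 0.2445 and the ZNF598 ratio between -0.1687 and 0.03761. At 13 and 8 counts in the RPS3 footprint libraries, the size of the JRKL change is limited by counting error.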

Other observations

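Mitochondrially encoded genes, the subunits of the respiratory chain that mitochondria translate themselves, spread widely between controls. Of 13 tested, none passed in mRNA and 3 rose in footprints against control. Their mRNA mean was 0.17 and 0.06 in the RPS3 libraries, -1.10 in control 20_2 and 1.12 and 1.28 in the controls titled 21 and 22. The footprint mean was 0.37 and 0.65 in RPS3 libraries 1 and 2, against -0.78 to 0.58 in the controls. The RPS3 libraries lay within the spread of the controls for mRNA, and for footprints library 2 lay just above it.

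Of all genes tested, 24.3% were called in mRNA and 41.5% in footprints, and nothing particular to the lists that follow is read from their counts. Of 24 detoxification genes under the factor NRF2, 2 rose and 8 fell in mRNA and 5 rose and 6 fell in footprints. OSGIN1 and FTL, an oxidative stress protein and the ferritin light chain, rose in the ratio by 0.98 and 1.01. Of 42 nuclear genes of oxidative phosphorylation, 2 rose and 6 fell in mRNA and 11 rose and 6 fell in footprints. Of 9 lung epithelial and A549 markers that passed the filter in mRNA, 2 rose and none fell, with a list mean of 0.34 in both RPS3 libraries and -0.33 to 0.62 in the controls. Interferon response genes changed in 2 of 18 cases in mRNA, both lower.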
